A study of Mus musculus with 68 samples.

Results

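The amino acid response and serine synthesis genes described here are a list of 34 symbols chosen by name: regulators of the response to amino acid shortage, enzymes that make serine, asparagine and one-carbon units, amino acid transporters and cytosolic tRNA synthetases. All 34 were found among the 23420 gene symbols of the count table, and Lars2, a mitochondrial synthetase, is not one of them. The samples were 68 laser-captured libraries from the mouse growth plate, the cartilage whose chondrocytes drive bone elongation, taken from animals of mixed background. No other genotype and no treatment is named in the labels. Captures came from the resting zone, which holds slowly cycling reserve cells, from the proliferative zone, where flattened cells divide in columns, and from the hypertrophic zone, where cells enlarge before bone replaces them. The mice were 2, 3 or 28 days old, written P2, P3 and P28. The ethanol-fixed libraries numbered 9 resting, 8 proliferative and 8 hypertrophic at P2 and 8, 9 and 9 at P28; 1 P3 animal gave 1 of each zone, and xylene-fixed P28 sections gave 4, 5 and 5. Zones were compared with one another within P2 and within P28, and P28 with P2 within a zone.

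Libraries held 748 to 3347722 counts, and those with at least 100000 were summed per animal and zone. This gave 4 ethanol sums per zone at P2 (resting from animals A, D, F and G, proliferative from A, D, E and G, hypertrophic from A, C, D and G) and 3 per zone at P28 (animals A, B and D), with letters assigned here within each age. Levels are CPM, the counts per 1000000 counts outside 3 symbols (Rn45s, Lars2 and Glra2) that took up a large and uneven part of the libraries. The ethanol sums held 20032 to 2884454 counts outside these symbols, so that 3 counts, the limit that a count of 0 allows, stand for 1.04 to 150 CPM depending on the sum. In the hypertrophic sums the share of counts outside the 3 symbols was 7.92% to 58.2% at P2 and 14.96% to 52.3% at P28, against 36.5% to 83.4% and 41.1% to 68.6% in the proliferative sums. The number of genes with a count was 3372 to 8967 in P2 hypertrophic and 4022 to 11212 in P2 proliferative sums, and 5096 to 7916 against 7164 to 11626 at P28. Of 14 chondrocyte markers, 13 were in the table and all 13 had counts in every group of sums. The labels name animals in the plural for P2 animal D and P28 animal B, so either may be a pool. Labels that differ only in a final number were taken as the same animal, which the labels do not state. For P28 animal A the resting and hypertrophic sums come from different labels of this kind, and the proliferative sum from both. For P28 animal B the proliferative and hypertrophic sums hold both of its labels and the resting sum only the second.

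Some libraries went against their animal label when Xist, an RNA of the inactive X chromosome, was set beside 4 genes of the Y chromosome (Ddx3y, Uty, Kdm5d and Eif2s3y). The library labelled P2 animal G resting held 128 Xist and 747 Y-linked counts, while the proliferative and hypertrophic libraries of that animal held 0 Xist counts with 1071 and 161 Y-linked counts. For P28 animal D, 1 of the ethanol proliferative libraries (replicate 9) held 267 Xist and 0 Y-linked counts. The other one (replicate 8) held 0 and 4, and the resting library of that animal held 0 and 76. The library labelled P3 proliferative held 355 Xist and 311 Y-linked counts, against 0 Xist counts in both other zones of the P3 animal. Whether these libraries hold cells of another animal was not tested. Values without P2 animal G or P28 animal D are therefore given beside many of the differences below, and P3 values carry the same doubt in their proliferative level.

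Cells that lack an amino acid, or that carry unfolded protein in the endoplasmic reticulum, phosphorylate the translation factor eIF2. General translation then falls, while the mRNA of the transcription factor ATF4 is translated more. ATF4 acts with partners of the C/EBP family and raises transcription of amino acid transporters, of enzymes for serine, glycine, asparagine and mitochondrial one-carbon metabolism, of many tRNA synthetases and of its own brakes. In cartilage, ATF4 is known to take part in chondrocyte proliferation and differentiation, and chondrocytes need large amounts of glycine, proline and serine for their matrix. ATF4 is controlled mainly at translation, which these counts of RNA do not measure.

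The shared DNA element of ATF4 and C/EBP factors has the core letters TGATGNAA, or TTNCATCA when read on the other strand. These letters were searched on both strands in RefSeq promoter windows (GRCm38.p6) of 300 bases, from 250 bases before to 50 after each start. Of the 27 listed genes that matched a window by symbol, 9 (33.3%) held the letters, against 4.51% of the 27025 symbols in the table and 3.97% of its 32851 windows. Before the start alone, 6 (22.2%) held them, against 3.91% of symbols. The genes were listed by name for this response, so the higher share is not a result of these data. Shown are 8 of these genes, because they spread over regulators, transporters, synthetases and Asns, and include no serine or folate enzyme; each line is 30 bases of the gene's own strand, read 5′ to 3′, with the match in capitals. Slc7a11 held a match on each strand close together. The matches of Trib3 and Iars lie after the RefSeq start, and that of Slc1a4 spans it.

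Trib3, chr2:152344028-152344057 (- strand): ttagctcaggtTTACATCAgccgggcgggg
Nupr1, chr7:126625562-126625591 (- strand): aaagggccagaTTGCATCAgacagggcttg
Chac1, chr2:119351038-119351067 (+ strand): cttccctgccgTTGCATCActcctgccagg
Asns, chr6:7693214-7693243 (- strand): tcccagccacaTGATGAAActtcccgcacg
Slc7a11, chr3:50443652-50443681 (- strand): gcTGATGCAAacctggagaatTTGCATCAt
Slc1a4, chr11:20332699-20332728 (- strand): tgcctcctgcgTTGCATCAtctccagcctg
Gars, chr6:55037960-55037989 (+ strand): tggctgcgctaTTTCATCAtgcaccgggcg
Iars, chr13:49682126-49682155 (+ strand): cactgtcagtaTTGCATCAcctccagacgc

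Slc38a2, the listed gene that the calls below turn on, held no such letters in its window. For that reason the 98 bases before its start are shown. Sequence outside the window was not searched, so letters further upstream or within the gene, introns included, would have been missed. Whether Slc38a2 holds the element elsewhere was not tested.

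Slc38a2, chr15:96699731-96699828 (- strand): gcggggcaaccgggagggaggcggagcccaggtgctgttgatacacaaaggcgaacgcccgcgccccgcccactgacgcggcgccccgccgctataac

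Slc38a2 (SNAT2, a sodium-coupled importer of small neutral amino acids such as alanine, serine and glutamine) was the only listed gene called in any of the 11 comparisons. It is annotated at chr15:96687392-96699730 on the minus strand (GENCODE vM21, GRCm38), and no exon of another gene overlaps it. At P2 its level in the hypertrophic sums of animals A, C, D and G was 653, 300 (299.5 before rounding), 3223 and 3121 CPM. In the proliferative sums of animals A, D, E and G it was 136, 669, 854 and 498 CPM, and in the resting sums of A, D, F and G it was 87.8, 885, 939 and 755 CPM. Means were 1824 ± 1564 CPM (SD, n = 4) in hypertrophic, 539 ± 305 in proliferative and 667 ± 394 in resting sums. The groups overlapped: the hypertrophic sums of animals A and C, the shallowest (44414 and 20032 counts), lay within the range of the other zones. Within each animal with both zones the hypertrophic sum was the higher. With the animal as a block, animals C, E and F, which lack sums of another zone, carry no weight in the fitted P2 zone differences. These rest on animals A, D and G, so the low hypertrophic sum of animal C does not enter them. By edgeR's quasi-likelihood test with the animal as a block, Slc38a2 rose from the proliferative to the hypertrophic zone by 2.67 ± 0.72 log2 units (SE), a 6.38-fold difference with an adjusted p of 0.0161. The resting zone was lower than the hypertrophic one, with a log2 fold change of -2.40 ± 0.70 (adjusted p = 0.0255, edgeR). Both calls were lost without the replicate block, without the filter on low counts, with a library minimum of 50000 counts, and without P2 animal A, D or G, and the second also without P28 animal B. With edgeR the adjusted p for hypertrophic against proliferative was then 0.102 without animal A, 0.251 without D and 0.445 without G, and with the lower minimum the log2 difference was 1.45 ± 0.81. Without animal G the log2 differences were 2.47 and -2.35 (adjusted p = 0.346 for the second), and without P28 animal D they were 2.60 and -2.38 (adjusted p = 0.00155 and 0.00231).

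At P28 the hypertrophic sums of animals A, B and D held 1825, 4013 and 1445 CPM of Slc38a2. The proliferative sums held 518, 561 and 556 CPM and the resting sums 1477, 943 and 539 CPM. Every hypertrophic sum lay above every proliferative sum, as it did for 4.61% of the 6958 genes tested. The highest resting sum, that of animal A, lay above the lowest hypertrophic one. Means were 2428 ± 1386 (SD, n = 3), 545 ± 23.4 and 986 ± 470 CPM. The fitted difference of hypertrophic from proliferative, 2.08 ± 0.70 on the log2 scale, did not pass the threshold with edgeR (adjusted p = 0.131), but did with DESeq2 (2.23 ± 0.55, adjusted p = 0.00386) and with each animal label counted as its own animal (2.41 ± 0.57, adjusted p = 0.00246, edgeR). Without animal D it was 2.44 ± 0.72 (adjusted p = 0.0819, edgeR) and without P2 animal G 2.13 ± 0.76 (adjusted p = 0.171). Whether the difference itself changed with age was tested as an interaction, which gave -0.59 ± 0.96 (adjusted p = 0.980, edgeR). In the resting sum of P28 animal A, markers of the prehypertrophic and hypertrophic zone summed to 23394 CPM, against 1554 and 2127 CPM in the other resting sums of that age; the part of this in its Slc38a2 value was not tested.

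In the samples kept out of the tests the hypertrophic zone again held the highest level. In the single P3 animal Slc38a2 stood at 2819 CPM in the hypertrophic, 580 (579.6 before rounding) in the proliferative and 579.8 CPM in the resting zone. In the xylene-fixed sums of P28 animals D and E it stood at 1280.3 and 3106 CPM in the hypertrophic, 581 and 590 (589.9 before rounding) in the proliferative and 785 and 1241 CPM in the resting zone. Over the 9 pairs of sums from 8 animals (animal D of P28 gave an ethanol and a xylene pair), Slc38a2 was higher in the hypertrophic than in the proliferative sum in 9 of 9 and higher than in the resting sum in 9 of 9. Of the 6958 genes tested between zones, 1.93% were higher in the hypertrophic than in the proliferative sum in all 9 pairs, and 2.06% higher than in the resting sum in all 9. The hypertrophic xylene sum of animal D also held 78106 CPM of 9 osteoblast and osteocyte markers (8 detected), against 659 CPM in that of animal E, and its Slc38a2 level was the lower of the pair; the part of bone cells in it was not tested.

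**Figure D1:**
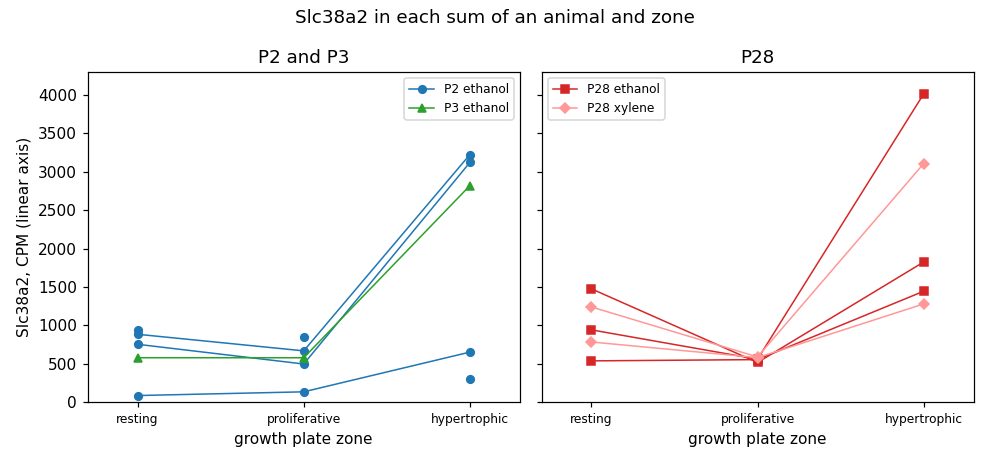
Slc38a2 level (CPM, linear vertical axis) by growth plate zone, with 1 line for each animal and fixation; animals with 1 zone are single points. The 9 lines that reach the hypertrophic zone end above their proliferative and resting points, from 653 CPM in P2 animal A to 4013 CPM in P28 animal B.

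The zones also differed in marker genes of cell types and cell states. Of 12 markers of the prehypertrophic and hypertrophic zone, all 12 had counts in hypertrophic sums, and they summed to 32997 to 99269 CPM at P2 and 88330 to 176503 CPM at P28. In proliferative sums 11 of 12 were detected (Mmp13 at 0), and they summed to 1921 to 3224 and 4801 to 14125 CPM. Of 12 markers of dividing cells, 4 were detected in P2 hypertrophic sums (Mki67, Ccnb1, Ccna2, Cdk1, Cenpf, Birc5, Aurkb and Mcm5 at 0) at 0 to 833 CPM in sum, against 12 of 12 at 436 to 1888 CPM in P2 proliferative sums. At P28, 6 of 12 were detected in the hypertrophic zone (Ccnb1, Ccna2, Cdk1, Birc5, Aurkb and Pcna at 0) at 9.40 to 78.6 CPM, against 12 of 12 at 562 to 876 CPM in the proliferative zone. The resting sums of these markers overlapped the proliferative ones at each age. They were 825 to 1970 CPM at P2 (12 of 12 detected) and 133 to 2147 CPM at P28 (11 of 12, Pcna at 0). Perichondrium and fibroblast markers summed to 1736 to 9234 CPM in P2 resting sums (7 of 8 detected, Dpt at 0) against 349 to 1511 CPM in P2 proliferative sums (5 of 8, with Thy1, Twist1 and Dpt at 0). Blood markers summed to 30.6 to 2496 CPM in P2 hypertrophic sums against 0 to 42.4 CPM in P2 proliferative and 0 to 44.1 CPM in P2 resting sums, with Hbb-b1, Hba-a1 and Hba-a2 at 0 in each zone. The haemoglobin gene Beta-s was called in both comparisons that called Slc38a2 (log2 fold change 4.47 ± 1.29 for hypertrophic against proliferative, adjusted p = 0.0308, and -5.46 ± 1.35 for resting against hypertrophic, adjusted p = 0.00394, edgeR). Osteoblast and osteocyte markers (5 of 9 detected in each zone at P2; Bglap, Bglap2 and Sost at 0 in all) summed to 147 to 5641 CPM in P2 hypertrophic, 517 to 740 CPM (739.8 before rounding) in proliferative and 1397 to 3430 CPM (3429.6 before rounding) in resting sums. Muscle markers summed to 0 to 1647 CPM in P2 hypertrophic sums (5 of 7 detected, Myh3 and Myh8 at 0), 26.2 to 642 CPM in proliferative (4 of 7, with Ckm, Myh3 and Des at 0) and 3.62 to 182 CPM in resting sums (5 of 7, with Ckm and Des at 0). The part of any of these in the values of the listed genes was not tested. In bulk captures of this kind, fewer cells of a type and less RNA per cell cannot be told apart.

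Between the hypertrophic and the proliferative zone at P2, 24 of the 34 listed genes passed the filter on low counts and 1, Slc38a2, was called with edgeR, in the direction of higher, against 2.31% of all 6958 genes tested in either direction (1.14% higher and 1.18% lower). Of the 24, 17 had a log2 fold change below 0, against 57.1% of all genes, and their median was -0.58 (-0.58 also with genes at 0 placed at their bound) against -0.36 over all genes. At an unadjusted p under 0.05 with edgeR there were 5 lower (9.61% of all genes) and 1 higher (4.6%). DESeq2 called 5 listed genes, among them Shmt1 with 0 hypertrophic counts. The same comparison at P28 called 0 of 24 with edgeR (1.12% of all genes were called, 0.546% higher and 0.575% lower). At an unadjusted p under 0.05 there were 5 lower (8.88% of all genes) and 1 higher (3.32%), and DESeq2 called 3. The median at P28 was -2.09 (-1.89 with bounds, over 23 genes) against -0.52 over all genes, and 20 of 24 were below 0, against 60.4% of all genes.

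Between the resting and the proliferative zone, edgeR called 0 of 24 at P2 (0.259% of all genes, 0.101% higher and 0.158% lower). At P28 it called 0 of 24 (0.561% of all genes, 0.144% higher and 0.417% lower), and DESeq2 called 0 at both ages. At an unadjusted p under 0.05, 2 listed genes were lower at P2 (1.72% of all genes) and 3 lower at P28 (8.64%), and 0 were higher at either age (2.41% and 1.84% of all genes). Of the 24, 18 were below 0 at P2 (45% of all genes) and 21 at P28 (66.3%). The median of the 24 was -0.75 at P2 against 0.15 over all genes, and -2.11 at P28 (-1.96 with bounds) against -0.81. With the RLE scaling of edgeR in place of TMM, the median over all genes at P28 moved from -0.81 to -0.24 and that of the listed genes from -2.11 to -1.57. Between the resting and the hypertrophic zone, the single call at P2 was Slc38a2, lower in resting (3.77% of all genes were called, 2.08% higher and 1.68% lower). At an unadjusted p under 0.05, 2 were higher (11.8% of all genes) and 1 lower (4.8%) at P2, and 11 of 24 were below 0 (39.2% of all genes). DESeq2 called 3 at P2, among them Shmt1 with 0 hypertrophic counts. At P28 edgeR called 0 of 24 (1.77% of all genes, 0.546% higher and 1.22% lower). There 2 were higher (5.58% of all genes) and 1 lower (8.16%) at an unadjusted p under 0.05, and 15 were below 0 (55.1% of all genes). DESeq2 called 1, Shmt1, with 0 hypertrophic counts. The medians were 0.14 against 0.52 over all genes at P2 and -0.24 (-0.34 with bounds, over 20 genes) against -0.27 at P28.

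**Figure D2:**
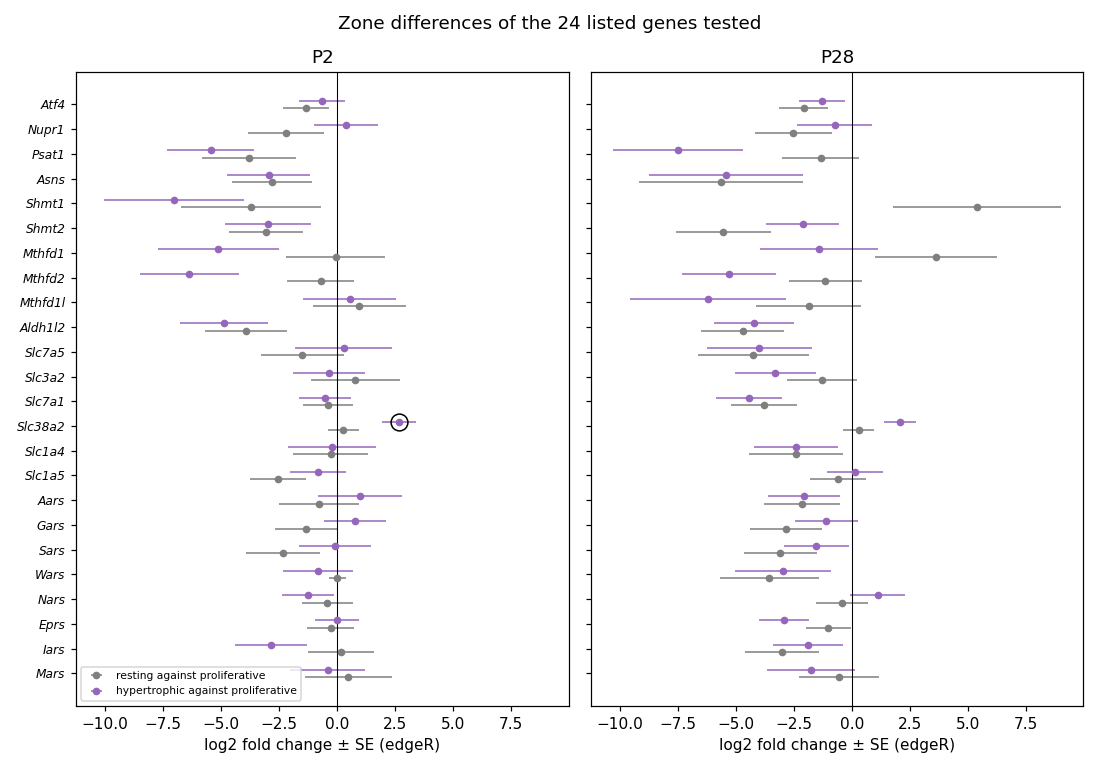
Log2 fold change with its standard error (edgeR) of the listed genes tested, for resting (grey) and hypertrophic (purple) against proliferative, at P2 on the left and P28 on the right; Shmt1, with 0 counts in both zones, is left out of the purple points at P28. The circled point, Slc38a2 at P2 at 2.67, is the single call among these 4 comparisons.

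Atf4 itself, the transcription factor at the head of the response, was detected in all but 1 of the 21 ethanol sums. At P2 its level was 273, 521, 592 and 505 CPM in the proliferative sums of animals A, D, E and G, 67.6, 221, 254 and 247 CPM in the resting sums of A, D, F and G, and 45.03, 0, 521 and 317 CPM in the hypertrophic sums of A, C, D and G. At P28, animals A, B and D held 279, 381 and 144 CPM in the proliferative, 205, 72.5 and 21.003 CPM in the resting and 47.2, 196 and 59.6 CPM in the hypertrophic zone. All P2 proliferative sums lay above all P2 resting sums, a pattern of 3 of the 24 listed genes tested (Atf4, Shmt2 and Slc1a5) and of 1.18% of all genes. The fitted difference of resting from proliferative was -1.35 ± 0.99 at P2 and -2.06 ± 1.06 at P28 on the log2 scale, with adjusted p-values of 1 and 0.472 (edgeR), so neither passed. Over all 9 pairs, xylene and P3 included, Atf4 was lower in the resting than in the proliferative sum in 9 of 9, a pattern of 2 of the 24 listed genes (Atf4 and Aldh1l2) and of 1.26% of all genes; the resting sums at P28 held only 3 to 15 Atf4 counts each.

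The other regulators were uneven between sums, and most had few counts. Nupr1, a small stress-induced chromatin protein, was tested and not called. It was at 0, 177, 0 and 247 CPM in the P2 proliferative sums of animals A, D, E and G, at 20.3, 28.96, 10.7 and 7.63 CPM in the resting sums of A, D, F and G and at 45.03, 0, 128 and 220 CPM (220.2 before rounding) in the hypertrophic sums of A, C, D and G. It was lower in the resting than in the proliferative sum in 8 of 9 pairs. The share of all genes with 8 of 9 pairs in a direction was not counted, here or for the genes below. Ddit3 (CHOP, the pro-apoptotic partner of ATF4) had counts in 4 of 4 resting, 2 of 4 proliferative and 2 of 4 hypertrophic sums at P2, with 165 CPM in the proliferative sum of animal G as the highest. At P28 it had counts in 3 of 9 sums, with 103 CPM in the hypertrophic sum of animal D. Exons of Ddit3 and of the listed gene Mars overlap on opposite strands, so reads of the pair cannot be told apart without strand.

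Trib3, a pseudokinase that restrains ATF4, had counts in 6 of 21 ethanol sums, from 1 to 16 counts each. Chac1, which breaks down glutathione, had counts in 4 of 21, with 11 and 12 counts in the P2 proliferative sums of animals D and G, 32 in the P2 hypertrophic sum of G and 1 at P28. Sesn2, a sensor of leucine, had counts in 5 of 21. Cebpb, a C/EBP partner of ATF4, had counts in 10 of 21 ethanol sums. Its level was 360.2 CPM from 16 counts in the P2 hypertrophic sum of animal A and 0 to 49.1 CPM in the other 20 sums. Cebpb was higher in the hypertrophic than in the proliferative sum in 8 of 9 pairs. None of these passed the filter, and a count of 0 allows up to 150 CPM in the shallowest sum.

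In the serine branch, Phgdh, Psat1 and Psph take a glycolytic intermediate to serine. Psat1 (phosphoserine aminotransferase), the member of the branch with most counts, was at 331, 170.2, 174 and 47.4 CPM in the P2 proliferative sums of animals A, D, E and G. In the P2 hypertrophic sums of A, C, D and G it was at 0, 0, 5.11 and 0.665 CPM, and in the resting sums of A, D, F and G at 277, 1.81, 9.25 and 0 CPM. All hypertrophic sums lay below all proliferative ones, which held for 2 of the 24 listed genes tested (Psat1 and Mthfd2) and for 3.97% of all genes. The counts over the 3 animals with both zones were 2 against 174, a ratio of 0.0150 (95% exact interval 0.00180 to 0.0548, counting error only). The edgeR fold change of -5.45 ± 1.86 on the log2 scale did not pass (adjusted p = 0.0962), while DESeq2 gave -5.65 and an adjusted p of 0.0479. Without P28 animal D the edgeR value was -5.56 (adjusted p = 0.0287), and without P2 animal G -5.25 (adjusted p = 0.595). With a library minimum of 50000 counts it was -5.37 (adjusted p = 0.0471, edgeR). Psat1 was not called between resting and proliferative at P2 (-3.78 ± 2.03, and -2.001 without animal G).

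At P28 Psat1 was at 57.6, 44.4 and 23.9 CPM in the proliferative sums of animals A, B and D, at 68.4, 36.3 and 0 CPM in the resting sums and at 0 in all 3 hypertrophic sums. The hypertrophic level was thus at least 7.82-fold lower than the proliferative one, with 3 counts over the group as the floor (43 counts against 0), and it was not called by edgeR (adjusted p = 0.205; 0.555 without animal D). The resting level, from 8 counts, was at least 5.23-fold higher than the hypertrophic one. In the P3 animal Psat1 stood at 241 CPM in the proliferative, 1.81 in the hypertrophic and 0 CPM in the resting zone. In xylene-fixed sums of animals D and E it stood at 55.2 and 0 CPM in the proliferative and 13.8 and 0 CPM in the hypertrophic zone. Over all 9 pairs it was lower in the hypertrophic than in the proliferative sum in 8 and tied at 0 in 1.

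Phgdh, the first and committed enzyme of the branch, and Psph, the last, were not tested because too few sums held counts. Phgdh had 59 counts (20.5 CPM) in the P2 resting sum of animal G, 17 (9.49 CPM) in the proliferative and 0 in the hypertrophic sum of that animal, and 0 counts in each of the 7 ethanol hypertrophic sums. Psph had 20 counts (47.1 CPM) in the P2 proliferative sum of animal D and 40 (13.9 CPM) in the resting sum of animal G, and 0 to 3 counts in each hypertrophic sum; its exons overlap Cct6a on the other strand. Asns, which makes asparagine, was at 370, 172, 17.4 and 23.99 CPM in the P2 proliferative sums of animals A, D, E and G. It was at 47.3, 9.05, 0 and 6.24 CPM in the resting sums of A, D, F and G and at 0, 0, 35.8 and 3.33 CPM in the hypertrophic sums of A, C, D and G, so that the zones overlapped.

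Asns was not called in any comparison; the edgeR log2 fold change at P2 was -2.79 ± 1.73 for resting and -2.94 ± 1.79 for hypertrophic against proliferative. At P28 it had 15 counts over the proliferative sums of animals A and B and 0 in the other 7 sums, so that the resting level was at least 1.39-fold and the hypertrophic level at least 2.73-fold lower. Over the 9 pairs it was lower than in the proliferative sum in 8 and tied in 1, both for the resting and for the hypertrophic zone. Cth and Cbs, the transsulfuration enzymes that make cysteine from homocysteine, were not tested; Cth had counts in 5 and Cbs in 2 of the 21 ethanol sums, with a highest level of 30.7 CPM for Cbs in the P2 proliferative sum of animal G.

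The mitochondrial folate enzymes take the carbon that serine gives up and return formate to the cytosol. Mthfd2, which oxidises methylene-folate in mitochondria, was at 58.4, 167, 69.7 and 122 CPM in the P2 proliferative sums of animals A, D, E and G. In the resting sums of A, D, F and G it was at 47.3, 50.7, 59.8 and 83.6 CPM, and in the hypertrophic sums of A, C, D and G at 0, 49.9, 5.11 and 0 CPM. The 49.9 CPM of animal C is 1 count of the shallowest sum, and animal G, with 1503009 counts in its hypertrophic sum, held 0. The counts over the 3 animals with both zones were 1 against 293, a ratio of 0.00444 (95% exact interval 0.000112 to 0.0249). The edgeR log2 fold change was -6.37 ± 2.13 and did not pass (adjusted p = 0.0845); DESeq2 gave -5.86 and an adjusted p of 0.00371, and edgeR without P28 animal D gave -6.49 and an adjusted p of 0.0219. Without P2 animal G it gave -4.71 (adjusted p = 0.690). Between resting and hypertrophic at P2 the edgeR log2 fold change was 5.66 ± 2.13 (adjusted p = 0.116, and 0.0476 without P28 animal D and 0.670 without P2 animal G). DESeq2 gave 5.11 and an adjusted p of 0.0122 for it.

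At P28 Mthfd2 was at 168, 102 and 23.9 CPM in the proliferative sums of animals A, B and D, at 123, 157 and 0 CPM in the resting sums and at 15.7, 0 and 0 CPM in the hypertrophic sums, where the first of these is 1 count. The groups did not overlap between the proliferative and hypertrophic zones, and the edgeR fold change, -5.27 ± 2.02 on the log2 scale, was not called (adjusted p = 0.230; -4.78 and 0.502 without animal D). In the P3 animal it stood at 224 CPM in the proliferative and 2.41 CPM in the hypertrophic zone, and in the xylene sums of D and E at 147 and 137 against 57.4 and 0.580 CPM. Mthfd2 was lower in the hypertrophic than in the proliferative sum in 9 of 9 pairs, as were Aldh1l2 and Iars, so 3 of the 24 listed genes tested; 4.38% of all genes were.

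Aldh1l2, the mitochondrial enzyme that turns formyl-folate into carbon dioxide with NADPH, was at 77.9, 153, 0 and 145 CPM in the P2 proliferative sums of animals A, D, E and G. It was at 0, 97.7, 219 and 3.47 CPM in the resting sums of A, D, F and G and at 0, 0, 35.8 and 1.996 CPM in the hypertrophic sums of A, C, D and G. At P28 it was at 142, 110.1 and 114 CPM in the proliferative sums of animals A, B and D, and at 13.7, 0 and 7.001 CPM in the resting and 15.7, 4.91 and 3.13 CPM in the hypertrophic sums. Both other zones thus lay wholly below the proliferative zone at P28, with 2 resting and 3 hypertrophic counts over the group against 127.

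Aldh1l2 gave an edgeR log2 fold change of -4.87 ± 1.89 at P2 and -4.22 ± 1.72 at P28 for hypertrophic against proliferative (adjusted p = 0.169 and 0.278) and of -3.92 ± 1.77 and -4.70 ± 1.79 for resting against proliferative (adjusted p = 1 and 0.283). None passed with edgeR, and DESeq2 called 1 of the 4, hypertrophic against proliferative at P2 (-4.62, adjusted p = 0.0472). Without P2 animal G the P2 values were -3.39 and -2.35, and without P28 animal D the P28 values were -3.84 and -4.80, none called. Without the replicate block the P2 resting difference was 0.0871, on the other side of 0. In the animals with both zones Aldh1l2 was lower in the resting than in the proliferative sum in 9 of 9 pairs. Exons of Aldh1l2 overlap D10Wsu102e on the other strand.

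Shmt2, which splits serine in mitochondria, was at 156, 184, 69.7 and 109 CPM in the P2 proliferative sums of animals A, D, E and G and at 0, 34.4, 43.4 and 53.7 CPM in the resting sums of A, D, F and G, with no overlap. In the P2 hypertrophic sums of A, C, D and G it was at 0, 49.9, 0 and 109 CPM, and within animal G the levels of the proliferative and hypertrophic sums were the same to 3 digits. At P28 the proliferative sums of animals A, B and D held 48.7, 121 and 120 CPM (119.6 before rounding), the resting sums 0, 12.1 and 0 CPM and the hypertrophic sums 0, 44.2 and 34.5 CPM. The resting counts were 1 against 113, a ratio of 0.0318 (95% exact interval 0.000799 to 0.181), and edgeR gave -5.52 ± 2.05 on the log2 scale, which was not called (adjusted p = 0.261; -4.58 and 0.907 without animal D). Shmt2 exons overlap Ndufa4l2 on the other strand.

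The remaining one-carbon enzymes were sparse. Shmt1, the cytosolic counterpart of Shmt2, had counts in 4 of 21 ethanol sums; 94 of its 99 P2 proliferative counts in the animals with both zones came from animal G. Against 0 counts in the hypertrophic sums of those animals, the P2 proliferative level was at least 25.4-fold higher, and at P28 both zones held 0 counts. In the P28 resting zone all 7 Shmt1 counts came from animal A, at least 8.39-fold higher than proliferative and at least 4.58-fold higher than hypertrophic. At P2 the resting zone held 6 counts, against 99 in the proliferative zone (-3.71 ± 3.02, not called by edgeR) and 0 in the hypertrophic zone, too few for a bound above 1. DESeq2 called Shmt1 for hypertrophic against proliferative at P2 (adjusted p = 1.59e-05). It also called Shmt1 for resting against hypertrophic at P2 (adjusted p = 0.00635) and P28 (adjusted p = 4.12e-07). Those fits have 0 counts in the hypertrophic zone, and their log2 fold changes of -29.1, 20.5 and 33.4 are not measured sizes. Mthfd1, the cytosolic trifunctional enzyme, had 1 count against 55 in hypertrophic against proliferative at P2 (edgeR -5.12 ± 2.61, adjusted p = 0.350; -5.13 without P28 animal D, and not tested without P2 animal G) and was at 0 to 40.6 CPM in P2 resting sums; its resting against hypertrophic value there was 5.06 ± 2.54 (adjusted p = 0.290; 5.02 without P28 animal D). At P28 it reached 224 CPM in the resting sum of animal D, and its resting against hypertrophic value of 5.04 ± 2.91 was 0.66 without that animal (neither called, edgeR). Mthfd1l, which releases formate, was at 135, 16.3, 13.5 and 140 CPM in the P2 resting sums of animals A, D, F and G, at 0, 84.8, 0 and 21.2 CPM in the proliferative sums of A, D, E and G and at 135, 0, 15.3 and 53.2 CPM in the hypertrophic sums of A, C, D and G. At P28 it had 20 counts over the proliferative and 0 over the hypertrophic sums, at least 3.64-fold lower.

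**Figure D3:**
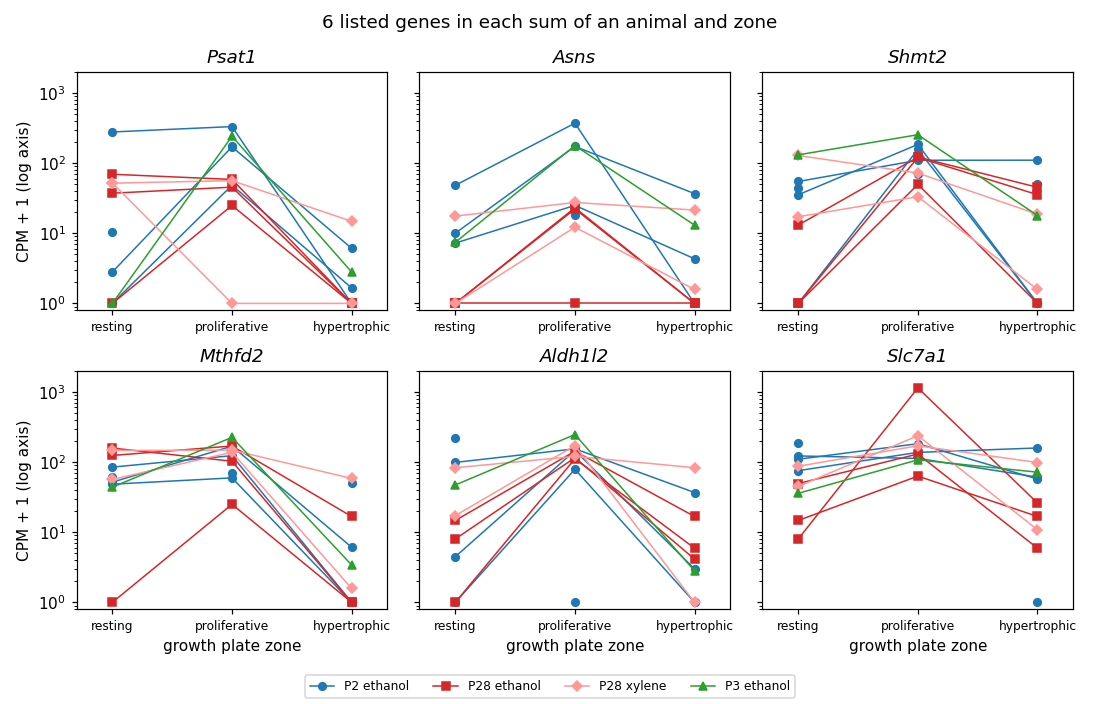
Level of 6 listed genes (CPM + 1, log vertical axis, so that 0 plots at 1) by zone, with 1 line for each animal and fixation. Mthfd2 and Aldh1l2 end lower in the hypertrophic than in the proliferative zone in all 9 lines; Slc7a1 reaches 1138 CPM in 1 proliferative sum.

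No other transporter was called. Slc7a1 (CAT1, the carrier of arginine and lysine) was at 136, 181, 174 and 112 CPM in the P2 proliferative sums of animals A, D, E and G, at 74.3, 109, 189 and 121 CPM in the resting sums of A, D, F and G and at 158, 0, 56.2 and 59.9 CPM in the hypertrophic sums of A, C, D and G. At P28 it was at 61.99, 129 and 1138 CPM in the proliferative sums of animals A, B and D, at 13.7, 48.3 and 7.001 CPM in the resting and at 15.7, 4.91 and 25.1 CPM in the hypertrophic sums. The P2 zones overlapped, and the P28 proliferative sums lay above both other zones.

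The P28 proliferative sum of animal D held 428 of the 503 proliferative Slc7a1 counts of that age, 246 in replicate 8 and 182 in replicate 9, the library with Xist counts. The edgeR log2 fold change of hypertrophic against proliferative at P28 was -4.42 ± 1.40 with it (adjusted p = 0.0959) and -3.42 ± 1.76 without animal D (adjusted p = 0.666). DESeq2 called the difference (adjusted p = 0.00752), as did edgeR with each animal label an animal (adjusted p = 0.0315) and with the library minimum set without the 3 abundant symbols (-4.98, adjusted p = 0.0394). For resting against proliferative at P28 the edgeR log2 fold change was -3.79 ± 1.41 (adjusted p = 0.261) and -2.03 without animal D (adjusted p = 0.908). With that last minimum it was -7.70, but only the resting sum of animal D reached that minimum, so no p-value is given. The interaction of the hypertrophic difference with age was -3.91 ± 1.75 and was not called (adjusted p = 0.791, edgeR; -2.82 without animal D).

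Slc7a5 and Slc3a2, the light and heavy chains of the leucine transporter LAT1, were not called. Slc7a5 was at 19.5, 87.2, 0 and 23.4 CPM in the P2 proliferative sums of animals A, D, E and G, at 0, 34.4, 105 and 21.1 CPM in the resting sums of A, D, F and G and at 0, 0, 40.9 and 110 CPM (110.4 before rounding) in the hypertrophic sums of A, C, D and G. At P28 it had 43 counts over the proliferative sums and 1 over each of the other zones. Slc3a2 was at 0, 196, 0 and 52.4 CPM in the P2 proliferative sums, at 459, 56.1, 10.7 and 20.8 CPM in the resting sums and at 22.5, 0, 35.8 and 77.8 CPM in the hypertrophic sums, with animals in the same order. At P28 its proliferative sums, at 61.99, 84.7 and 37.2 CPM in animals A, B and D, lay above the hypertrophic ones, at 0, 24.6 and 0 CPM.

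Slc7a11 (xCT, which imports cystine with Slc3a2 as its heavy chain) was not tested: it had counts in 5 of 21 ethanol sums, with 15 in the P2 proliferative sum of animal D as the highest count. Slc1a5 (ASCT2, a glutamine carrier) was at 350.4, 184, 889 and 219 CPM in the P2 proliferative sums of animals A, D, E and G and at 54.1, 12.7, 2.14 and 71.4 CPM in the resting sums of A, D, F and G, with no overlap. Its edgeR fold change there was -2.53 ± 1.21 on the log2 scale and did not pass (adjusted p = 1). The P2 hypertrophic sums of A, C, D and G held 0, 0, 153 and 189 CPM, and over all pairs Slc1a5 was lower in the hypertrophic than in the proliferative sum in 5 of 9. Slc1a4 (ASCT1, a serine and alanine carrier) was at 5.70 to 60.8 CPM in P2 resting, 11.2 to 87.1 in proliferative and 5.11 to 57.2 CPM in hypertrophic sums.

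**Figure D4:**
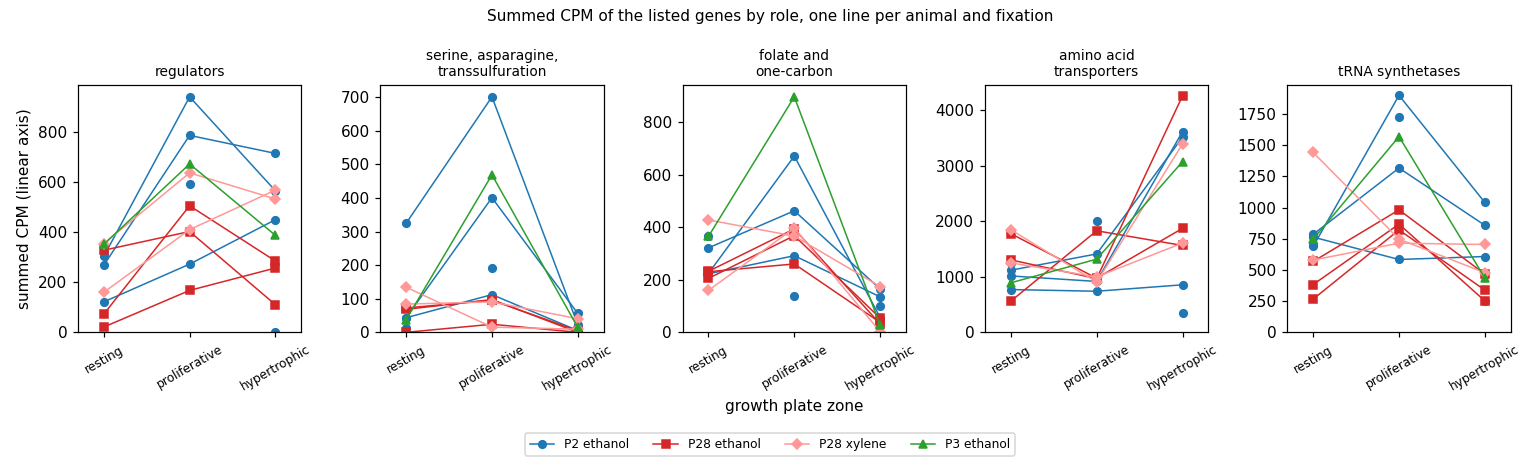
Summed CPM of the listed genes of each role (linear axes that differ between panels) by zone, with 1 line for each animal and fixation. The serine and folate sums are at most 56.2 and 174 CPM in the hypertrophic zone, and some resting serine sums are as low. The transporter sums, of which Slc38a2 is the main part, reach 4258 CPM in the hypertrophic zone.

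Summed over the 6 serine, asparagine and transsulfuration genes, the ethanol hypertrophic sums held 0 to 56.2 CPM at P2 and 0 to 4.91 CPM at P28. These lay below the ethanol proliferative sums at 112 to 701 and 23.9 to 97.4 CPM. The ethanol resting sums, at 13.5 to 324 and 0 to 72.5 CPM, overlapped both other zones at both ages. In the ethanol sums the 6 folate genes summed to 56.2 to 165 CPM in P2 hypertrophic and 139 to 672 CPM in P2 proliferative sums, and to 31.5 to 54.03 against 261 to 394 CPM at P28. The ethanol folate sums of the resting zone, 223 to 366 CPM at P2 and 205 to 232 CPM at P28, lay above those of the hypertrophic zone of the same age. In xylene-fixed P28 animals D and E the hypertrophic zone overlapped the proliferative one in the serine group and the resting one in the folate group. The serine group held 40.4 and 9.27 CPM in the hypertrophic and 90.6 and 15.4 CPM in the proliferative zone. The folate group held 174 and 1.74 CPM in the hypertrophic and 428 and 160 CPM in the resting zone. Its proliferative sums, at 367 and 397 CPM, lay above the hypertrophic ones. Within each of these animals the hypertrophic sum was the lower. These sums over genes carry no test.

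The 8 tRNA synthetases, which load amino acids onto tRNA, were all tested between zones, and none was called in any comparison that tested it. Their sum was 584 to 1900 CPM in P2 proliferative, 689 to 785 in resting and 250 (249.6 before rounding) to 1041 in hypertrophic sums; in P28 ethanol sums it was 821 to 982, 266 to 568 and 252 to 467 CPM in the same order, with both other zones wholly below the proliferative one. The xylene-fixed sums of P28 animals D and E did not keep this order: they held 715 and 748 CPM in the proliferative, 579.6 and 1442 CPM in the resting and 704 and 478 CPM in the hypertrophic zone. Eprs, the glutamyl-prolyl synthetase, was at 204, 383 and 181 CPM in the P28 proliferative sums of animals A, B and D, at 164, 145 and 210 CPM (210.03 before rounding) in the resting sums and at 15.7, 24.6 and 56.4 CPM in the hypertrophic sums. The edgeR log2 fold change of hypertrophic against proliferative was -2.92 ± 1.08 (adjusted p = 0.201; DESeq2 gave 0.0221, and edgeR without animal D -3.73 and 0.129), against 0.01 ± 0.95 at P2. Their difference, the interaction with age, was not called (-2.94 ± 1.43, adjusted p = 0.821, edgeR; -3.71 without P28 animal D and -2.81 without P2 animal G).

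Iars, the isoleucyl synthetase, was at 19.5, 139, 34.9 and 393 CPM in the P2 proliferative sums of animals A, D, E and G and at 0, 49.9, 30.6 and 21.96 CPM in the hypertrophic sums of A, C, D and G, with overlap. Its fold change at P2 was -2.83 ± 1.55 on the log2 scale (adjusted p = 0.415, edgeR). Wars, the tryptophanyl synthetase, held 123 of its 146 P28 proliferative counts in animal D, at 327 CPM, all of them in replicate 8; Slc7a1 also stood high in that sum. The others, Aars, Gars, Sars, Nars and Mars, ranged from 0 to 361 CPM over the ethanol sums. Exons of Aars overlap Exosc6 on the same strand. At P28, 11 of the 24 listed genes tested lay wholly lower in the hypertrophic than in the proliferative sums (Psat1, Shmt2, Mthfd2, Aldh1l2, Slc3a2, Slc7a1, Slc1a4, Aars, Sars, Eprs and Mars), where 14.7% of all genes did. The resting sums lay wholly below the proliferative ones for 4 (Shmt2, Aldh1l2, Slc7a1 and Sars), where 10.5% of all genes did.

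Between P28 and P2 no listed gene was called in any zone, with different animals at each age. In the resting zone 0 of 9 tested listed genes were called by edgeR (0.872% of 3327 genes), in the proliferative zone 0 of 20 (0.679% of 4712) and in the hypertrophic zone 0 of 6 (0.102% of 1963). In each zone 0 had an unadjusted p under 0.05, and DESeq2 called 0. The medians of the listed genes were -1.12, 0.06 and -0.22 on the log2 scale against -0.53, 0.04 and 0.09 over all genes. Named by size, the differences were -2.61 ± 1.65 for Iars, -2.40 ± 1.49 for Slc7a1 and -1.92 ± 1.72 for Gars in the resting zone. Without P28 animal D these were -1.79, -1.72 and -2.31. In the proliferative zone they were -1.55 ± 1.06 for Slc1a5, -1.41 ± 1.34 for Psat1 and -1.37 ± 1.42 for Mars. Without P28 animal D these were -1.45, -1.78 and -0.81, and without P2 animal G -1.71, -1.9999 and -1.01. In the hypertrophic zone they were -2.48 ± 1.27 for Eprs, -1.93 ± 1.24 for Gars and 1.07 ± 1.18 for Nars. Without P28 animal D these were -2.40, -1.34 and 0.62, and without P2 animal G Gars was -1.46 and Nars 0.43. Slc38a2 differed between the ages by 0.66 ± 0.89, 0.35 ± 0.81 and 0.83 ± 0.77 in the same order of zones.

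The interaction of zone and age called 0 of 24 listed genes for resting against proliferative (0.144% of all genes, 0.0431% higher and 0.101% lower) and 0 of 24 for hypertrophic against proliferative (0% of all genes) with edgeR, and DESeq2 called 0 in both. At an unadjusted p under 0.05 there were 0 for resting (1.03% of all genes higher and 5.75% lower). For hypertrophic there were 2, Slc7a1 and Eprs, both lower (2.87% of all genes higher and 3.06% lower). Below 0 were 19 of 24 (67.8% of all genes) and 16 of 24 (54.2%). The medians were -0.91 against -0.98 over all genes and -1.38 against -0.24. By size, the resting interactions were led by Shmt1, Mthfd1 at 3.69 ± 3.31 and Wars at -3.55 ± 2.71, of which the last were -0.03 and -0.93 without P28 animal D. The hypertrophic ones were led by Shmt1, Mthfd1l and Slc7a5, the last at -4.26 ± 3.05 (-4.43 without P28 animal D and -2.02 without P2 animal G). The values of Shmt1 and Mthfd1l are fitted over P28 groups with 0 counts and are not given.

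A further 156 genes of neighbouring pathways were counted in the same fits, of which 102 were tested between zones. They cover the eIF2 kinases and subunits, other ATF4 and CHOP targets, endoplasmic reticulum stress, other tRNA synthetases, the folate and methionine cycles, other amino acid transporters, glutathione and mTORC1 sensing. With edgeR, 3 were called between the resting and hypertrophic zones at P2 and 1 at P28, all lower in the resting zone, where 1.68% and 1.22% of all genes were lower, and DESeq2 called 6 and 3. In the other 9 comparisons edgeR called 0, 0 to 17 had an unadjusted p under 0.05 in a direction, and DESeq2 called 0 to 5. Slc38a4 (SNAT4, a sister carrier of Slc38a2) was at 0, 27.1, 14.2 and 5.55 CPM in the P2 resting sums of animals A, D, F and G and at 270.2, 599, 582 and 449 CPM in the hypertrophic sums of A, C, D and G, with no overlap. All P2 hypertrophic sums lay above all P2 resting sums for 2.26% of all genes. The edgeR log2 fold change was -5.78 ± 1.30 (adjusted p = 0.000824), and it was lost without animal G (adjusted p = 0.147).

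At P28 Slc38a4 was at 0, 48.3 and 0 CPM in the resting and 126, 756 and 339 CPM in the hypertrophic sums of animals A, B and D, a log2 fold change of -5.90 ± 1.40 (adjusted p = 0.00415, edgeR). That call was lost without the replicate block (0.0606), without animal B (0.0610) and without animal D (0.0763). Cdkn1a, the cell cycle inhibitor p21, was at 0, 5.43, 0 and 0.347 CPM in the P2 resting and 67.5, 99.8, 797 and 456 CPM in the P2 hypertrophic sums (-8.19 ± 1.70, adjusted p = 0.000208, edgeR; 0.123 without animal G). At P28 the zones overlapped, and Cdkn1a was at 438, 242 and 0 CPM in the resting and 94.4, 103 and 273 CPM in the hypertrophic sums of animals A, B and D. Map1lc3b, the autophagosome protein LC3B, was at 13.5, 74.2, 60.5 and 24.96 CPM against 158, 0, 547 and 464 CPM in the same sums (-3.88 ± 1.21, adjusted p = 0.0402, edgeR). It overlapped between the zones and was lost under 8 of the alternatives. At P28 Map1lc3b was at 547, 169 and 7.001 CPM in the resting and 409, 403 and 132 CPM in the hypertrophic sums of animals A, B and D, again with overlap. In the endoplasmic reticulum stress list 0 of 13 tested were called by edgeR at P28, with medians of -1.54 for resting and -1.83 for hypertrophic against proliferative, beside -0.81 and -0.52 over all genes. At an unadjusted p under 0.05, 6 and 5 were lower, beside 8.64% and 8.88% of all genes.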

How the data were processed

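Growth plate zones were captured by laser from sections of 10 microns, and libraries were made by SMART-seq2 without RNA extraction, per the labels' protocols. The authors deposited raw counts, whole reads per gene symbol. The submitters' processing notes name STAR 2.5.2b, featureCounts 1.5.3, Subread, cutadapt and the build mm10; strand, annotation and multi-mapping settings were not given in the sources used here. The 100 columns were taken to 68 libraries, 32 of which had 2 columns that were summed as repeat runs. Of 51 ethanol libraries at P2 and P28, the 26 that reached 100000 counts were summed into 21 animal and zone sums. The sums were tested with edgeR 4.0.16 in R 4.3.3: TMM, filterByExpr, a robust quasi-likelihood F-test and Benjamini-Hochberg adjustment over all genes tested, with a threshold of 0.05. Zones were fitted with the animal as a block (8 residual degrees of freedom), and ages within a zone with a term for the deposit set (4). At P2 the zone differences thus rest on animals A, D and G, the only animals of that age with sums of several zones. Zones of an animal share that animal if labels that differ only in a final number name the same animal, which was assumed. Their deviations from group means correlated by -0.00512 to 0.178. Standard errors come from the F statistic. CPM carry no TMM scaling. Xylene and P3 sums carry no test.

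Alternatives were DESeq2 1.42.0, RLE scaling, no filter, no block, other library minima, other animal counts, no deposit set term and each animal left out. Self-tests ran on simulated data. The listed genes and all lists were chosen with earlier results of these data known. Genes named are those called, 14 fixed symbols and the 3 largest differences per comparison. Positions are from GENCODE vM21, promoter letters from RefSeq, with 7 of 34 genes having no window. Some marker values and 1 gene's promoter letters are not reported here.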

Additional observations from a re-analysis of the deposited data

Results flagged for a closer look

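In 71 groups of 4 sums over 24 listed genes at P2, 8 sums stood far from the other 3 of their zone by Dixon's ratio at the 95% level. Chance flags about 1 in 20 groups of normal values; that rate does not hold where the other sums are at 0 or hold few counts, as here, so the number of such sums is given as a count alone. In the resting zone, animal A held 277 CPM of Psat1 (next 9.25), 40.5 CPM of Shmt1 (next 0) and 459 CPM of Slc3a2 (next 56.1). In the hypertrophic zone, animal D held 35.8 CPM each of Asns (next 3.33) and Aldh1l2 (next 1.996) and 5.11 CPM of Psat1 (next 0.665). The hypertrophic sum of animal C held 49.9 CPM of Mthfd2 (next 5.11), and that of animal G held 0.665 CPM of Mthfd1 (others at 0). The last 2 are 1 count each.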

How the results depend on the processing

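Alternatives were set beside counts of calls by edgeR (adjusted p under 0.05). Without the replicate block, Slc38a2 was no longer called: the listed genes called fell from 1 to 0 for hypertrophic against proliferative and for resting against hypertrophic at P2. The same counts were 0 and 0 without the filter and 5 and 3 with DESeq2, with Shmt1 in both over 0 hypertrophic counts. With a 50000-count minimum the second count was 0. In the first comparison Slc38a2 then lost its call (adjusted p = 0.379, edgeR) and Psat1 was called instead (adjusted p = 0.0471, edgeR). Leaving out an animal gave 0 to 3 and 0 to 2. At P28 the listed count, 0, became 1 for hypertrophic against proliferative with the library minimum set without the abundant symbols. With DESeq2 it became 3 for that comparison and 1 for resting against hypertrophic. With each label an animal it became 2 for hypertrophic against proliferative. The P28 resting counts of listed genes under the minimum without the abundant symbols are not given, as only the resting sum of animal D reached it. For the other comparisons that are given, the listed count was 0 throughout. Over all genes the counts of calls were 18, 161 and 262 at P2 (resting against proliferative, hypertrophic against proliferative, resting against hypertrophic) and 39, 78 and 123 at P28 in that order. They were 10 and 0 for the resting and hypertrophic interactions and 29, 32 and 2 for the ages in the resting, proliferative and hypertrophic zones. With 1 animal left out they ranged, in the same order, from 5 to 39, 28 to 309, 54 to 430, 5 to 39, 18 to 80, 28 to 129, 1 to 12, 0 to 10, 13 to 68, 6 to 49 and 1 to 2. The following lists give, in that order, only counts over 1.5 times off. DESeq2 gave 33, 369 and 472 at P2, 128, 215 and 344 at P28, 44 and 74 for the interactions and 105 and 21 for ages in the resting and hypertrophic zones. Without the filter there were 89 and 165 for the hypertrophic comparisons at P2, 14, 48 and 64 at P28, 5 for the resting interaction and 62, 13 and 1 for ages. Without the replicate block there were 11 for resting against proliferative at P2, 2, 9 and 40 at P28 and 3 for the resting interaction. The 50000-count minimum gave 4, 21 and 46 at P28, 3 for the resting interaction and 4 and 1 for ages in the proliferative and hypertrophic zones. The minimum set without Rn45s, Lars2 and Glra2 gave 29 for resting against proliferative at P2, 255 and 262 for both resting comparisons at P28, 95 and 10 for the interactions and 204 and 6 for ages in the resting and hypertrophic zones. Under that minimum the P28 resting zone was a single sum, that of animal D. The counts for both P28 resting comparisons, the resting interaction and ages in the resting zone therefore lack replicates in that zone. They cannot show how those comparisons depend on the minimum. With each label an animal there were 70 and 141 against proliferative at P28, 5 for the hypertrophic interaction and 1 for ages in the hypertrophic zone. RLE gave 18 for resting against proliferative at P28 and 2 for its interaction, and no deposit set term gave 54 and 1 for ages in the proliferative and hypertrophic zones. For single listed genes, 688 values kept their direction and side of the threshold, 18 passed it, 13 lost it and 2 reversed: Aldh1l2 for resting against proliferative at P2 without the replicate block (0.0871) and Mthfd1 in the resting interaction without P28 animal D (-0.0294; without 1 animal its range was -0.0294 to 5.45). The cause was not tested. Shmt1 gave no value at P28 for resting without animal A, and none for its hypertrophic interaction with DESeq2. RLE scaling moved the median of all genes at P28 from -0.52 to -0.39 (hypertrophic against proliferative) and from -0.27 to 0.12 (resting against hypertrophic), and that of the listed genes to -2.03 and -0.03; in the interactions it moved from -0.98 to -0.42 and from -0.24 to -0.04, with listed genes at -0.36 and -1.29. Between zones 10 of the 34 listed genes did not pass the filter on low counts, and 3 counts stand for up to 150 CPM.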
